A study of Mus musculus with 2 samples.

Results

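The 6 genes described here make the miRNAs miR-199, miR-214 and miR-218: Mir199a-1, Mir199a-2, Mir199b, Mir214, Mir218-1 and Mir218-2. They were found by their Ensembl identifiers, named through mouse GENCODE, among the 1973 miRNA genes counted in each library, and all 6 were present. The libraries are microRNA sequencing of whole intestine from 2 newborn mice, postnatal day 0, of strain B6NCrl. Per the labels both pups came from the same pregnant female, the sex was not collected, no gut segment is named and no treatment or altered allele is given. The series therefore holds 1 group of 2 littermates, with 1 library each, and no comparison between conditions. Levels are in CPM: a gene's counts are scaled to 1000000 counts on the annotated strand of all miRNA genes. Each ± is the SD over the 2 pups.

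A miRNA is cut from a hairpin in a longer transcript, and either side of the hairpin, the 5p or the 3p arm, can become the mature strand. Bases 2 to 8 of the mature strand, the seed, pair with target mRNAs. MiR-199a and miR-214 are known from mesenchyme and fibroblasts, where the long noncoding RNA Dnm3os serves as precursor of both. MiR-218 is carried by the Slit genes, whose proteins are secreted ligands of Robo receptors, and besides stromal cells it is known from motor neurons. The tissue was measured in bulk, so these counts do not say which cells held the miRNAs, and fewer cells of a type cannot be told apart from less RNA per cell.

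Which of these genes can be counted at all depends on their sequences, so the hairpins are shown first, from RefSeq on GRCm38.p6, each 5′ to 3′ on its own strand. Capitals mark the mature arms, and all 6 genes had a hairpin entry. For Mir199b the 5p capitals mark the stretch of its hairpin closest to miR-199a-5p.
Mir199a-1: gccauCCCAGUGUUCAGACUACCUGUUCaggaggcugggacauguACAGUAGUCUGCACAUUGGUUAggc
Mir199a-2: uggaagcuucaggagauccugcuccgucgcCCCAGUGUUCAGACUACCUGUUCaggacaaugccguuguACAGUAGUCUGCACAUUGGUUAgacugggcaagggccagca
Mir199b: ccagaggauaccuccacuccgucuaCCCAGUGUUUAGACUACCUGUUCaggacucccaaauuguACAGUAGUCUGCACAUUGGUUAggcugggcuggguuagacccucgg
Mir214: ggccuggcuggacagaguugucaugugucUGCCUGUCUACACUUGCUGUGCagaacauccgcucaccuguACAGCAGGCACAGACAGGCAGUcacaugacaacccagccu
Mir218-1: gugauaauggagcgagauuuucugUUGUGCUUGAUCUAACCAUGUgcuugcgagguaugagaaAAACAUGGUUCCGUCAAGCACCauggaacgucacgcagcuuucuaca
Mir218-2: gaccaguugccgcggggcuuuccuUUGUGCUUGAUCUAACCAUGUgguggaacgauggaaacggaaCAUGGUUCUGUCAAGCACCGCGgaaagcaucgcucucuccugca

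The mature arms follow with the seed in capitals, to show which genes give the same product.
miR-199a-5p, of Mir199a-1 and Mir199a-2: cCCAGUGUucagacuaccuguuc
5p stretch of Mir199b: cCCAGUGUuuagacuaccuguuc
miR-199a-3p and miR-199b-3p, of all 3 Mir199 genes: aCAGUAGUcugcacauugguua
miR-214-5p: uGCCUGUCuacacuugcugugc
miR-214-3p: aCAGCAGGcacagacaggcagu
miR-218-5p, of both Mir218 genes: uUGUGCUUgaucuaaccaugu
miR-218-1-3p: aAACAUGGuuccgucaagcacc
miR-218-2-3p: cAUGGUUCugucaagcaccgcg

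The 3 Mir199 genes shared both seeds, and their 3p arms were the same 22 bases. Mir199a-1 and Mir199a-2 also had the same 23-base 5p arm. The 5p stretch of Mir199b differed from miR-199a-5p by 1 substitution outside the seed, C10U, with positions counted from 1 at the 5′ end of miR-199a-5p. Mir218-1 and Mir218-2 had the same 21-base 5p arm. Their 3p arms had different seeds and at most 10 bases in a row in common. Neither arm of Mir214 occurred in another hairpin of the RefSeq table, which holds 1005 hairpins.

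The seeds were rare among other genes. Of 1738 mature entries in that table, those of the Mir199 genes alone carried CCAGUGU or CAGUAGU. The miR-214-3p seed recurred in Mir761 and the miR-218-5p seed in Mir7002. The miR-218-1-3p seed recurred in Mir496b. In these libraries Mir761 and Mir496b had 0 counts in both pups, which allows up to 3 counts in each, or 0.841 CPM in pup 1 and 0.640 CPM in pup 2. Mir7002 had 0 counts in pup 1 and 1 in pup 2. No other gene with one of these seeds thus reached 10 counts.

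Copies differ in how far a read must extend before it belongs to 1 gene. Around the 5p arm, Mir199a-1 and Mir199a-2 shared a run of 27 bases, which is the arm and the 4 bases after it. Around the 3p arm the shared run was 26 bases for this pair, 27 bases for Mir199a-2 with Mir199b, and 28 bases for Mir199a-1 with Mir199b, where it reached the annotated end of the Mir199a-1 hairpin. The Mir218 copies shared 22 bases around the 5p arm, the arm and 1 base after it. Multi-mapped reads, 30.0% ± 0.382 of each library on average, were assigned to no gene. A read of miR-199a-3p, or of miR-199a-5p or miR-218-5p, that ends at the arm's ends therefore has several places of origin. The counts of 5 of the 6 genes are lower limits in the sense that such reads are missing from them. The term has this meaning throughout. How much of each gene's count was lost this way was not tested. Whether any read was placed with the wrong copy was not tested either.

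**Figure D1:**
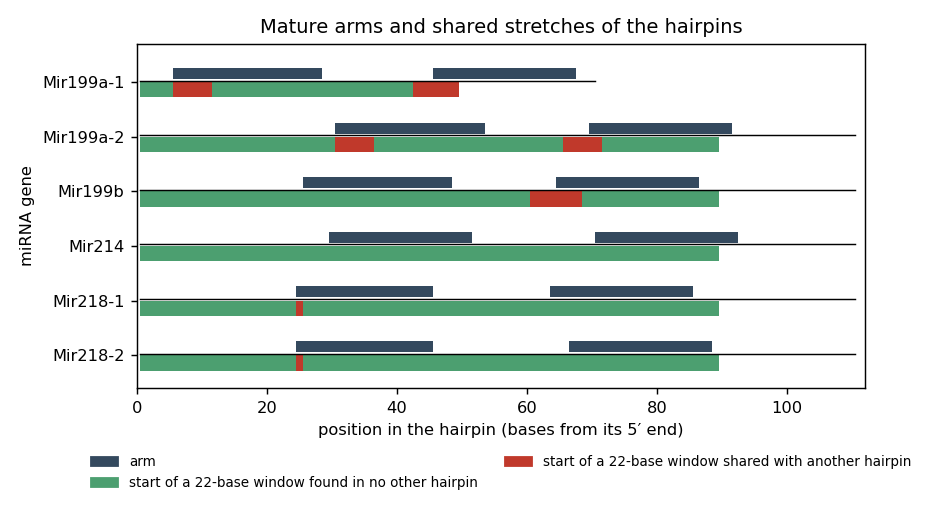
Hairpins of the 6 genes, with position in bases from the 5′ end on the horizontal axis and 1 row per gene. Dark bars are the mature arms, and the strip under each line marks at its start every 22-base window, green where no other of the 1005 hairpins holds it and red where one does. Red covers 13 of 49 windows in Mir199a-1, 12 of 89 in Mir199a-2, 8 of 89 in Mir199b, 1 of 89 in each Mir218 gene and 0 of 89 in Mir214.

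The plot of hairpin windows shows where the ambiguity lies. In Mir199a-1 and Mir199a-2 no 22-base window inside either arm was the gene's own. In Mir199b both windows inside the 5p stretch were its own and the 1 inside the 3p arm was not. Only annotated hairpins were searched, not the whole genome.

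Dnm3os carries Mir199a-2 and Mir214. On GRCm38 Mir199a-2 (ENSMUSG00000070126) lies on chromosome 1 from 162217814 to 162217923 on the plus strand, 191 bases from the start of Dnm3os. Mir214 (ENSMUSG00000065516) follows from 162223368 to 162223477, with 5444 bases between the hairpins. Each overlapped an exon in all annotated Dnm3os transcripts that span it, 3 for Mir199a-2 and 2 for Mir214. On the opposite strand both lie in an intron of Dnm3, a dynamin gene.

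The other Mir199 genes have no annotated host on their own strand. Mir199a-1 (ENSMUSG00000065547) spans 21496495 to 21496564 of chromosome 9, minus strand, opposite introns of Dnm2. Mir199b (ENSMUSG00000092807) lies on chromosome 2 from 32318460 to 32318569 on the plus strand, opposite introns of Dnm1. All 3 Mir199 genes thus face a dynamin gene, whose protein cuts endocytic vesicles from the membrane.

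Both Mir218 genes are intronic on the strand of their host. Mir218-1 (ENSMUSG00000065603) lies on chromosome 5 from 48223942 to 48224051 on the plus strand, in an intron of Slit2 in all 7 transcripts that span it. Mir218-2 (ENSMUSG00000065583) lies on chromosome 11 from 35616816 to 35616925 on the plus strand, in intron 14 of the 1 Slit3 transcript that spans it.

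Mir214 stood far above the others. It had 6666 counts in pup 1 and 7672 in pup 2, or 1868 CPM (95% Wilson interval 1824 to 1914) and 1638 CPM (1602 to 1675). Its mean of 1753 ± 163 CPM ranked it 59th of the 314 genes that had at least 10 counts in each library, between Mir139 (1778 ± 16.7 CPM) and Mir28a (1711 ± 367 CPM). Mir214 alone made up 84.7% ± 1.19 of the counts of the 6 genes. It is also the 1 gene of the 6 whose arms occur in no other hairpin.

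Mir199b, the copy whose 5p stretch is its own, was the next highest. It had 912 counts in pup 1 and 1161 in pup 2, or 256 CPM (240 to 273) and 248 CPM (234 to 263). The pups' intervals overlapped, and the mean of 252 ± 5.49 CPM ranked 133rd, next to Mir125b-2 (254 ± 5.31 CPM).

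Mir199a-2, the copy in Dnm3os, had 109 counts in pup 1 and 174 in pup 2. That is 30.6 CPM (25.3 to 36.9) and 37.1 CPM (32.0 to 43.1), intervals that overlap. The mean was 33.9 ± 4.66 CPM, rank 217, between Mir539 (34.4 ± 1.27 CPM) and Mir679 (33.3 ± 4.48 CPM). Both pups were thus far below the level of Mir214.

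Mir199a-1 had 10 counts in pup 1 and 9 in pup 2, or 2.80 CPM (1.52 to 5.16) and 1.92 CPM (1.01 to 3.65). It missed the minimum of 10 counts in each library by 1 count and is the 1 gene of the 6 called not detected. These counts are above the 3 that a count of 0 allows.

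The Mir218 copies had few counts in both pups, and these counts are lower limits because miR-218-5p is shared. Mir218-2, in Slit3, had 79 counts in pup 1 and 96 in pup 2, or 22.1 CPM (17.8 to 27.6) and 20.5 CPM (16.8 to 25.0), a mean of 21.3 ± 1.17 CPM at rank 239. Mir218-1, in Slit2, had 14 and 34 counts, or 3.92 CPM (2.34 to 6.59) and 7.26 CPM (5.19 to 10.1), a mean of 5.59 ± 2.36 CPM at rank 281. For Mir218-2 the levels of the pups lay close together. For Mir218-1 the level in pup 2 was the higher, with overlapping intervals. By level, Mir218-2 stood between Mir7j (21.9 ± 1.11 CPM) and Mir122 (20.6 ± 11.7 CPM), and Mir218-1 between Mir19b-1 (5.94 ± 1.26 CPM) and Mir6540 (5.46 ± 2.59 CPM).

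**Figure D2:**
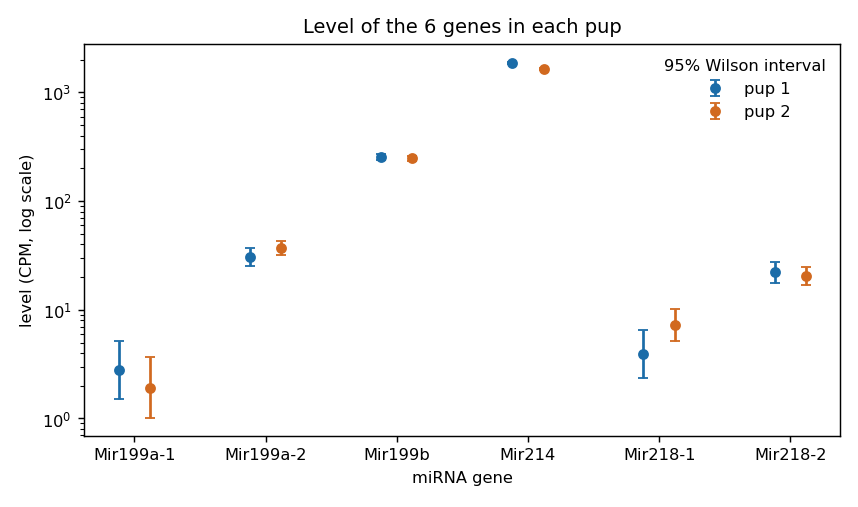
Level of each gene in CPM on a log axis, with 1 point per pup and bars for the 95% Wilson interval, which covers counting error only. Mir214 lies near 1868 and 1638 CPM and Mir199a-1 near 2.80 and 1.92 CPM.

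Together the 3 Mir199 genes had 289 CPM in pup 1 and 287 in pup 2, a mean of 288 ± 1.45 CPM. The Mir218 genes had 26.1 and 27.8 CPM, a mean of 26.9 ± 1.19 CPM. The 6 genes summed to 2068 ± 163 CPM, or 0.207% ± 0.0163 of all counts in miRNA genes. These sums leave out multi-mapped reads of the arms that copies share, so their counts are lower limits. The summed level of the 5 genes without Mir214 was 315 ± 0.255 CPM, so nearly all of the spread of the sum between the pups was that of Mir214. This SD is smaller than that of any of the 5 genes, because opposite differences cancelled in the sum. Mir199b, Mir218-2 and Mir199a-1 had a lower CPM in pup 2, and Mir199a-2 and Mir218-1 a higher one. No read fell on the opposite strand of any of the 6 genes in either library.

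**Figure D3:**
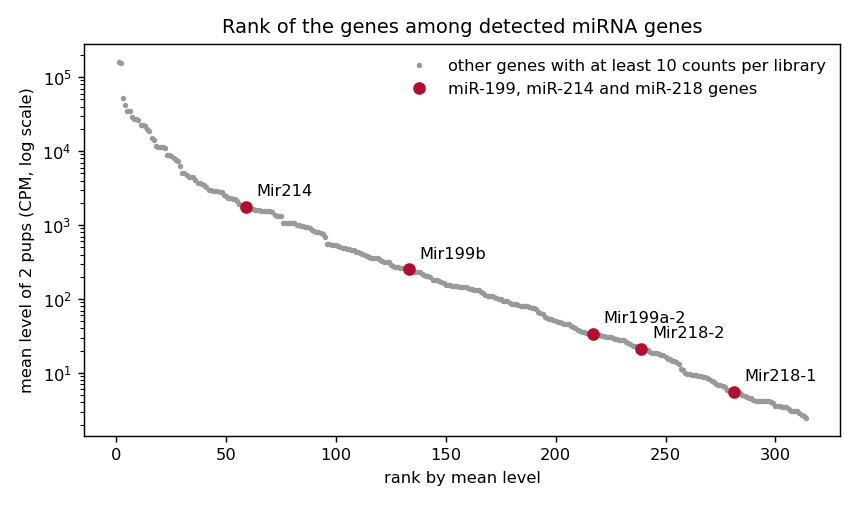
Mean level of the 314 genes with at least 10 counts in each library, in CPM on a log axis, against their rank. The 5 marked genes run from Mir214 at rank 59 to Mir218-1 at rank 281, and Mir199a-1, with fewer counts, is not plotted.

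The order by mean level was Mir214, Mir199b, Mir199a-2, Mir218-2, Mir218-1 and Mir199a-1, and the levels of neighbours in that order did not overlap between pups. The last of these neighbours, Mir218-1 and Mir199a-1, did not pass the test of their ratio. Each ratio was taken within a library and tested in edgeR by quasi-likelihood, blocked by pup, on 433 pairs of miRNA genes that share a number or lie within 10 kb, with the 15 pairs of these genes among them. Of the 15 pairs, 14 passed at an adjusted p under 0.05, against 93.3% of all 433 pairs, so that share is near the background. The median size of the log2 ratio was 3.56 over the 15 pairs and 2.73 over all 433. Pairs that share neither number nor neighbourhood were let in among the 15 only, so these medians are of unlike sets. Of the 15 ratios, 15 had 1 sign across the pups, as did 425 of all 433. Library preparation captures some small RNAs better than others, and multi-mapped reads are lost, so a ratio of counts is not a ratio of molecules. The part of either was not tested.

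Mir199a-2 and Mir214 are the 1 pair of the 6 genes on the same transcript, Dnm3os, and their counts were far apart. Mir199a-2 over Mir214 had a log2 ratio of -5.93 in pup 1 and -5.46 in pup 2, a fitted value of -5.68 (edgeR adjusted p = 2.29e-06), so Mir214 had 51.4-fold more counts. Mir199b, which shares no annotated transcript with Mir214, was closer to it: its log2 ratio to Mir214 was -2.87 in pup 1 and -2.72 in pup 2, fitted at -2.80 (edgeR adjusted p = 7.54e-06). The counts of Mir199a-2 and Mir199b are lower limits, and Mir214 shares no arm with an annotated hairpin. How the ratios of the amounts made differ from these ratios of counts was not tested.

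Within the Mir199 family the copies spread widely. Mir199a-2 over Mir199b had a log2 ratio of -3.06 in pup 1 and -2.74 in pup 2 (fitted -2.88, edgeR adjusted p = 4.34e-06), which is 7.39-fold more counts of Mir199b. Mir199a-1 over Mir199a-2 had -3.45 and -4.27 (fitted -3.87, edgeR adjusted p = 5.82e-05), or 14.6-fold more counts of Mir199a-2. These copies have the same 3p arm, so the ratios compare the reads that reached 1 gene only and not the amounts of mature miR-199.

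Between the Mir218 copies, Mir218-1 over Mir218-2 had a log2 ratio of -2.50 in pup 1 and -1.50 in pup 2 (fitted -1.88, edgeR adjusted p = 0.0021). The copy in Slit3 thus had 3.67-fold more counts than the copy in Slit2, with a wide spread between pups. Mir199a-2 exceeded Mir218-2 by a log2 ratio of 0.46 in pup 1 and 0.86 in pup 2 (fitted 0.68, edgeR adjusted p = 0.0118). This call was lost when the spread was estimated from the 15 pairs alone. Mir199a-1 and Mir218-1, the lowest pair, had -0.49 and -1.92 (fitted -1.31, edgeR adjusted p = 0.0786) and did not pass; it passed with no pup block (edgeR adjusted p = 0.0417). Over the 4 alternative fits of the full table of pairs its adjusted p ranged from 0.0417 to 0.130. With the spread estimated from the 15 pairs alone, its edgeR adjusted p was 0.283.

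**Figure D4:**
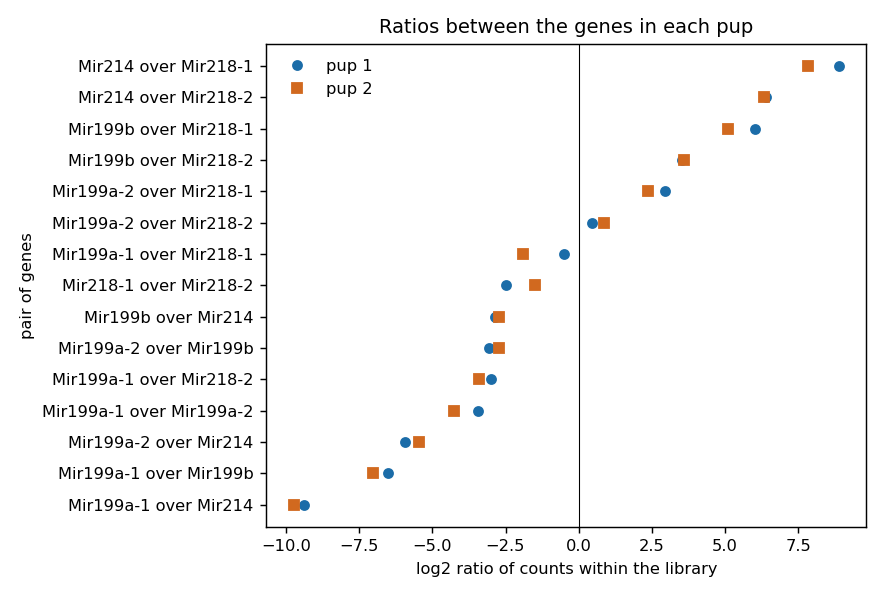
Log2 ratio of counts within each library for the 15 pairs, circles for pup 1 and squares for pup 2, sorted by the fitted ratio. The points of each pair lie on the same side of 0, from about -9.54 for Mir199a-1 over Mir214 to 8.23 for Mir214 over Mir218-1 as fitted.

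Of the 5 genes with enough counts, Mir214 alone differed between the libraries beyond counting error, by a small amount. Its ratio, pup 2 over pup 1, was 0.903 (95% exact binomial interval 0.874 to 0.933), or -0.15 on the log2 scale, with adjusted p = 5.72e-09 by the exact binomial test (2-sided, libraries scaled by TMM). With 1 of 5 genes called, the background was 41.1% of 314 genes called, of which 19.7% of the 314 were lower in pup 2. The test compares the libraries of 2 animals against counting noise, holds no replicate of either, and says nothing of a condition.

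The other genes did not pass the same test. Mir199b had a ratio of 0.999 (0.915 to 1.09, exact binomial adjusted p = 1.0), whose side of 1 changed with upper-quartile scaling and with a minimum of 100 counts. Mir218-2 had 0.953 (0.701 to 1.30, exact adjusted p = 0.890). Mir199a-2 had 1.25 (0.980 to 1.61, exact adjusted p = 0.147), and Mir218-1 had 1.91 (0.996 to 3.84, exact adjusted p = 0.0912). Mir199a-1 had too few counts for the test, and its ratio was 0.706 with an interval from 0.254 to 1.93. Depth set these widths: the interval of Mir214 was the narrowest of the 6, and those of Mir199a-1 and Mir218-1 included both 1 and 1.91.

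**Figure D5:**
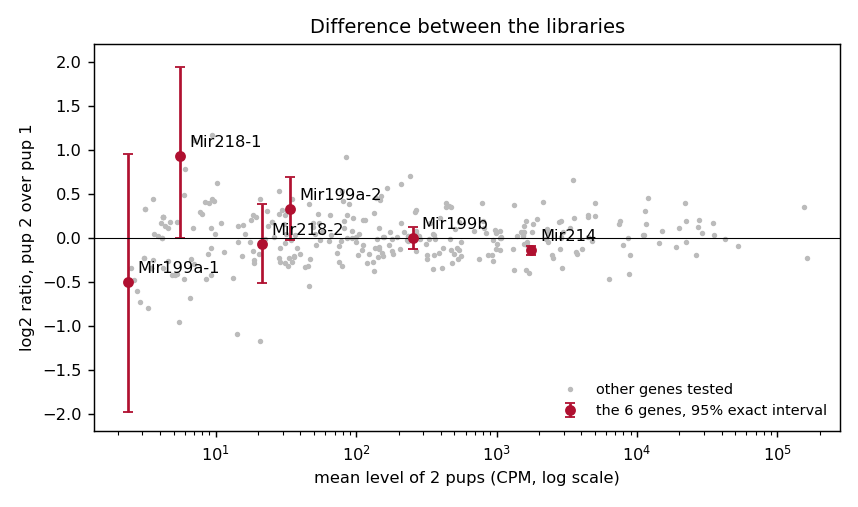
Log2 ratio of pup 2 over pup 1 against mean level in CPM on a log axis, grey for all genes tested and red for the 6 genes with 95% exact binomial intervals. The interval of Mir214 lies below 0 and those of the other 5 genes include 0; 2 grey points, Mir196b and Mir196a-2, lie below the vertical axis.

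Mir199a-2 and Mir214 moved in different directions by point estimate, although they share a host transcript. The log2 ratio of pup 2 over pup 1 was 0.32 (interval -0.03 to 0.68) for Mir199a-2 and -0.15 (-0.19 to -0.10) for Mir214. These counting intervals do not overlap, but Mir199a-2 alone did not differ from 0 and the difference between the genes was not tested across animals.

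Markers of other cell types differed between the pups as well. Over all 314 genes, 21.3% were called higher in pup 2 and 19.7% lower. Epithelial markers, 12 of 12 listed genes called higher in pup 2, summed to 31.6% of counts in pup 1 and 36.4% in pup 2. Mir205, an epithelial miRNA left off that list, was called lower (log2 ratio -0.12, exact binomial adjusted p = 0.0152). By mean level Mir215, Mir429 and Mir192 were the highest of them, with log2 ratios of 0.35, 0.03 and 0.05. With total counts as scaling 9 of the 12 were called higher, and Mir429 and Mir375 lay below 0. The smooth muscle list moved the other way, from 18.11% to 15.01%, with Mir143 called lower and Mir145a not called, though Mir145a was called lower with total counts and higher with upper-quartile scaling. Endothelial Mir126a, the 1 gene found of the 2 named for endothelium, was lower, with 5.46% of counts in pup 1 and 4.98% in pup 2. Mir221 (log2 ratio -0.02) and Mir222 (0.11), endothelial miRNAs left off that list, were not called. The libraries stood furthest apart in Mir196b, a miRNA of the Hox clusters, with 7337 counts in pup 1 and 310 in pup 2, and in its relative Mir196a-2, with 272 and 35, both named after their values were seen. The part of these differences in the lower level of Mir214 in pup 2 was not tested. A list of other stromal miRNAs, 13 of 14 named genes found, had 2 genes called higher and 3 lower of 10 tested, with a median log2 ratio of -0.01 against 0.00 over all 314 genes. The stromal list shares Mir143, Mir145a and Mir145b with the smooth muscle list, so these lists are not independent. Mir21a (0.16) and Mir22 (0.11) were called higher in the stromal list. Mir143 (-0.23), Mir23b (-0.06) and Mir27b (-0.20) were called lower, these 3 in the direction of Mir214. Mir23b was not called with upper-quartile scaling, under which the list had 5 genes called higher and 2 lower, and with total counts it had 2 higher and 5 lower.

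The lists for blood, nerve and striated muscle each held a smaller share of counts than the lists above. With 2 to 5 genes tested in each, against 5 of the 6 members, neither their calls nor that of Mir214 are read as a departure from the background of 41.1%. Leukocyte markers summed to 0.138% ± 0.0175 of counts with 2 of 5 genes called higher, erythroid markers to 0.0124% ± 0.00329 with 1 of 2, neuronal markers to 0.111% ± 0.0024 with 0 of 3 called and 4 of 8 found genes at 0 counts, and striated muscle markers to 0.0351% ± 0.000568 with 0 of 3 called and 3 of 7 at 0. The genes at 0 were copies of miR-9 and miR-124 in the first of these and of miR-1 and miR-133 in the second. Each of these miRNAs is made by several genes, both arms of Mir9-2 occur in 2 other hairpins, and multi-mapped reads were assigned to no gene. The neuronal counts are thus lower limits. Most of them were those of 1 gene, Mir137, with 1052 ± 26.3 CPM of the list's 1112 ± 24.0 CPM. The listed arm of Mir1a-1, miR-1a-1-5p, occurred in 0 other hairpins, and the arms of the miR-124 and miR-133 genes were not compared. Whether the striated muscle counts are lower limits too was not tested, and a 0 in either list is no sign of absence.

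Genes with shared arms were compared over the whole table as a description. Of 858 genes with a hairpin and a mature entry, 34 had no mature entry found in their own hairpin alone, and 6 of these, 17.6%, reached 10 counts in each library. Mir199b, for which the 3p entry alone counts here, had the highest mean level of the 34, and Mir199a-2 was another of the 6. Among 775 genes whose every mature entry was their own, 233 (30.1%) reached 10 counts, with a median of 180 CPM among those, and Mir214 was one of them. The Mir218 genes belong to the 49 with some entries of their own, of which 34 (69.4%) reached 10 counts, with a median of 49.8 CPM.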

How the data were processed

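The authors deposited unnormalized counts for each miRNA gene on mm10 with GENCODE M4, per a text file beside them. Which aligner and counting program were used is not given in the sources used here. There are counts on either strand, on the annotated strand (used here) and on the opposite strand. The 4 totals that name no gene stayed out; unmapped reads were 9.75% and multi-mapped reads 30.0% of all reads. Of 6375694 reads (pup 1) and 8373497 reads (pup 2), 3567658 and 4683939 were counted in miRNA genes. Names and positions came from GENCODE M21 on GRCm38, for 1894 of 1973 identifiers; the other 79 held 0 counts. Sequences came from RefSeq (GRCm38.p6).

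CPM, SDs and 95% Wilson intervals were computed per library; these and the floor of 3 counts measure counting error alone, because PCR copies cannot be told from separate molecules here. Genes with at least 10 counts in each library were compared by a 2-sided exact binomial test after TMM scaling (edgeR 4.0.16), with Benjamini-Hochberg adjustment over 314 genes. Pairs were tested by edgeR's quasi-likelihood test, adjusted over 433 pairs, many of which share genes. Alternatives used limma 3.58.1, DESeq2 1.42.0 and other scalings, minimums and denominators.

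The members and lists were chosen with earlier results of these data known. Genes named are the 6 members, their neighbours in level, genes that share a seed, and the highest or called genes of the lists. The lists are other stromal miRNAs and markers of epithelium, smooth muscle, endothelium, leukocytes, erythroid cells, neurons and striated muscle. Mir196b, Mir196a-2, Mir205, Mir221 and Mir222 are on none of the lists and were named after their values were seen.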

Additional observations from a re-analysis of the deposited data

How the results depend on the processing

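The summed level of the 6 genes was 2068 CPM. It was 1157 counts per 1000000 reads with all reads of the library as denominator and 2469 CPM without the highest gene, Mir143, in the denominator. With each pup alone it ranged from 1953 to 2184 CPM. Mir214 was called lower in pup 2 under the 6 other scalings, minimums and strand settings run, with log2 ratios from -0.19 to -0.11 (exact binomial adjusted p from 2.73e-14 to 4.99e-05). The number of the 6 genes called was 1 in each of these and 0 with a fold threshold of 1.5, which left 10 of 314 genes in all. The split of all calls was 51.9% higher in pup 2, 41.7% with total counts and 64.6% with upper-quartile scaling. Of the pairs, 14 of 15 passed with limma, with DESeq2 and on either strand, 15 with no pup block, and 13 when only the 15 pairs were fitted. With a minimum of 100 counts the 3 pairs among Mir199a-2, Mir199b and Mir214 were left, and 3 passed. Depth limits Mir199a-1 and Mir218-1 most, with 9 to 34 counts per library.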
